A study of Mus musculus with 3 samples.

Results

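The endothelial cells of the injured Achilles tendon were 255 of the 4978 tendon cells that passed filtering, and of 9002 filtered cells in the series. They were chosen by their counts: at least 10 unique molecular identifiers (UMIs, each 1 captured mRNA molecule) summed over 4 genes (*Cdh5*, *Cldn5*, *Emcn* and *Egfl7*) with no UMI of the pan-leukocyte gene *Ptprc* or the fibroblast receptor gene *Pdgfra*. Because these genes picked the cells, their levels below are a description of the choice and not a finding. The series holds 3 single-cell 3′ RNA libraries, 1 from each of blood, bone marrow and tendon injury site of C57BL/6J male mice 10 weeks old, taken on day 3 after burn/tenotomy, a burn to the back combined with complete transection of the Achilles tendon. All 3 tissues carry this injury, no uninjured tissue was in the series, and no sort was applied. The tendon alone was digested with enzymes, whereas marrow and blood went through red cell lysis and blood through a density gradient. Since each tissue is 1 library and no source used here says how many mice were pooled in it, no test between groups was possible, and the intervals given are exact 95% intervals that cover counting error only, for counts, shares and ratios.

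Endothelial cells line all blood and lymphatic vessels. They hold a tight barrier through VE-cadherin and claudin junctions, read growth factors of the VEGF and angiopoietin families, and let leukocytes out of the blood at inflamed sites by showing selectins and adhesion receptors, mainly in venules. Arterial, capillary, venous and lymphatic endothelium differ in the genes they use, and new vessels in wounded tissue grow from sprouts led by tip cells. The wall of a blood vessel also holds mural cells (pericytes and smooth muscle), which sit against the endothelium.

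The 4 genes of the rule each have a known place in this biology. *Cdh5* (VE-cadherin, GRCm38 chr8:104101625-104144511, plus strand) is the adherens junction protein of endothelium, *Cldn5* (chr16:18776847-18778262, plus strand) its main tight junction claudin, *Emcn* (chr3:137341067-137432185, plus strand) a sialomucin of capillary and venous endothelium, and *Egfl7* (chr2:26580014-26593120, plus strand) a secreted protein of growing vessels. The promoter sequences of 3 of them follow because these genes define the cells, each as the 250 bases ahead of a RefSeq start on GRCm38.p6, plus strand. Capitals mark CAGGAAG, a motif of ETS transcription factors such as *Erg* and *Fli1*, or its reverse complement CTTCCTG. No entry was matched for *Cdh5*, *Plvap*, *Gpihbp1* or *Pecam1*.
Cldn5 (chr16:18776597-18776846): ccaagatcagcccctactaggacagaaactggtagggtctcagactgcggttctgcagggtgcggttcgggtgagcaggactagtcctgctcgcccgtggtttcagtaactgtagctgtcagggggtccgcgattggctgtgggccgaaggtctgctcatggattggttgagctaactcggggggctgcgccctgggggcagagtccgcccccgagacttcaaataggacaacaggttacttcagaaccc
Emcn (chr3:137340828-137341077): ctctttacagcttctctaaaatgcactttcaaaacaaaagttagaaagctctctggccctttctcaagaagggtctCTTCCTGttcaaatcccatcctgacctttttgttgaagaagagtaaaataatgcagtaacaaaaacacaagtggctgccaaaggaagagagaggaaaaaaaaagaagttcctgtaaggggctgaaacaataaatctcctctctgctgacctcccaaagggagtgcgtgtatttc
Egfl7 (chr2:26580833-26581082): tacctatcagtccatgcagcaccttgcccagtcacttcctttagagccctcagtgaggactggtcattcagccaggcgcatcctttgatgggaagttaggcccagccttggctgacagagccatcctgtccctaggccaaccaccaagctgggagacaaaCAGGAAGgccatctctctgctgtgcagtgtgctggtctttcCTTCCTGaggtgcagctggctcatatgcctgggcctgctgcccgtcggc
*Egfl7* has 3 windows in RefSeq, with 2, 1 and 0 matches, and the first of them is printed. The *Emcn* window held the motif at 1 place and the *Cldn5* window at 0. Among all RefSeq windows, counted with 250 bases before and 50 after the start on both strands, 13.3% held these letters (4359 of 32851). Among 18 windows of 13 pan-endothelial genes, 6 held them, of which 3 were windows of *Emcn* and *Egfl7*. The SOX letters ACAATGG were in 0 of these 18 windows and in 3.66% of all, and the GATA letters AGATAAG in 2 of the 18 and in 3.04% of all. A match of letters is not a binding site, and windows without one say nothing about the factor.

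The endothelial cells made up 5.12% (4.53 to 5.77) of filtered tendon cells and 9.06% of their UMIs. Their depth ran from 1359 to 180193 UMIs per cell with a median of 22947, whereas the 4723 other tendon cells had a median of 12084. The median number of genes was 4576 and the median mitochondrial share 4.28%. The tendon library as a whole held 90621052 UMIs, the marrow library 49580625 and the blood library 22542581. In blood, 0 of 2184 filtered cells met the rule, and in marrow 1 of 1840 did. That marrow cell held 117394 UMIs, of which 10 were *Egfl7* and 0 were *Cdh5*, *Cldn5*, *Emcn*, *Pecam1* or *Plvap*, so its markers went against the label and it was not counted as endothelial. Cell barcodes were shared by 6 pairs of tendon and blood cells and 1 pair of tendon and marrow cells, and by 0 of the endothelial cells.

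Per 10000 UMIs of a cell, *Cdh5* ranged from 0 through a median of 7.66 to 27.8, with 4 cells at 0. *Cldn5* ranged from 0 through 2.81 to 61.6, with 69 cells at 0. *Emcn* ranged from 0 through 3.62 to 14.7, with 15 cells at 0. *Egfl7* had a median of 8.97 and a highest value of 26.7, with 4 cells at 0. The genes outside the rule gave the same picture of the label: *Pecam1* (CD31, the general endothelial adhesion molecule) had a median of 7.66 per 10000 UMIs, and 252 of 255 cells held at least 1 UMI of it. *Plvap*, which forms the diaphragms of fenestrae and caveolae, was at 0 in 52 cells, and *Gpihbp1*, the capillary carrier of lipoprotein lipase, was at 0 in 84. These cells held 80.5% of all *Pecam1* UMIs of the filtered tendon library, 86.2% of *Plvap* and 89.4% of *Gpihbp1*.

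Of the filtered tendon cells, 84.9% had 0 UMIs of the 4 genes, and 470 cells had 1 to 9, more than the 255 that were chosen. The 5 cells just outside the threshold (8 or 9 UMIs) had *Pecam1* at 929 UMIs per 1000000 (CPM) and the leukocyte gene *Lyz2* at 92.9 CPM, and the 7 just inside it (10 or 11 UMIs) had 708 and 246 CPM. *Plvap* was at 372 CPM outside and 154 CPM inside, and *Fabp4* at 16266 and 9783 CPM. In these few cells the endothelial genes were thus at no lower level just below the threshold. The counts were small, with 20 UMIs of *Pecam1* outside and 23 inside, and 8 and 5 UMIs of *Plvap*. Both sets were shallow, with medians of 4154 and 4661 UMIs. Another 29 cells reached 10 UMIs of the 4 genes and were left out, 21 for *Ptprc* and 10 for *Pdgfra*, with 2 counted in both. Those left out for *Ptprc* had a median of 38802 UMIs, and 8 of the 21 were among the 198 tendon cells with the highest doublet scores. Of the 255 endothelial cells, 8 were among those 198.

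**Figure D1:**
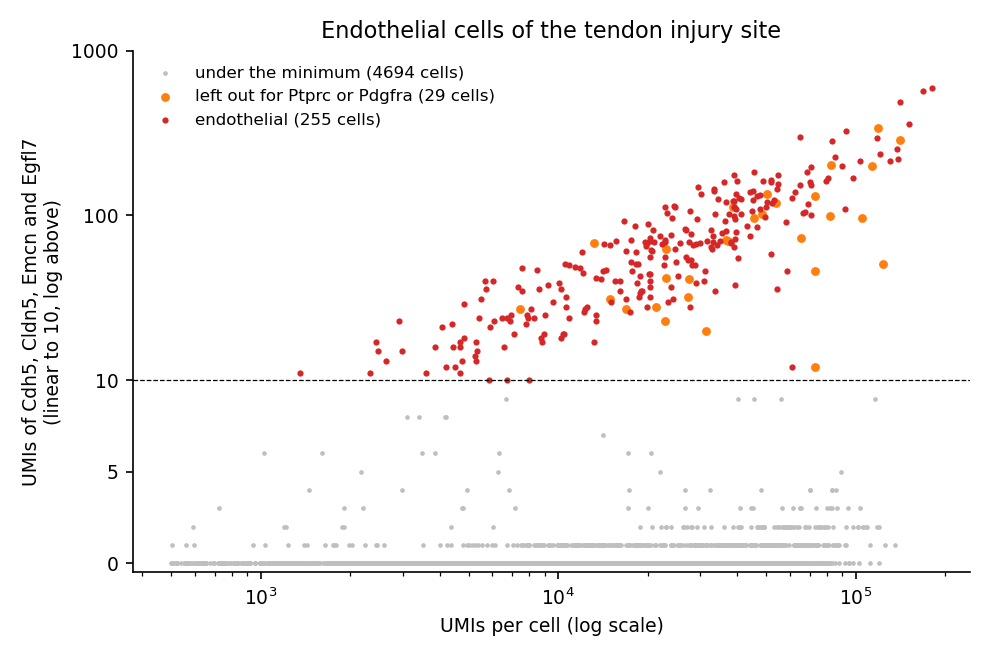
Each point is a filtered tendon cell, with its UMIs on a log axis across and its UMIs of the 4 chosen genes upward (linear to 10, log above). Orange cells were left out for *Ptprc* or *Pdgfra*. The 255 endothelial cells lie at or above the threshold of 10 UMIs, and 84.9% of filtered cells have 0.

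Summed over cells, *Cdh5* stood at 768 CPM (749 to 788) in endothelial cells and 14.1 CPM in other tendon cells. *Plvap* is outside the rule. After each cell was thinned to 3000 UMIs, 68.5% (62.4 to 74.3) of the 248 endothelial cells deep enough had a *Plvap* UMI, against 79.6% before thinning and with 7 shallower cells left out. In leukocytes, which should lack the gene and were chosen with at most 2 UMIs of the 4 rule genes, the thinned share was 0.488% of 2869 cells, at a median depth of 11096 UMIs against 22947. In mural cells, chosen under the same limit, the thinned share was 8.33% (3.67 to 15.8) of 96 cells, against 24% before thinning. Of 15355 genes with at least 20 UMIs over both groups, 1904 were more than 2-fold higher in endothelial than in other tendon cells, which is 12.4%, and 3175 were more than 2-fold lower, which is 20.7%, around a median log2 ratio of 0.01. Because the rule chose the cells on this contrast, every count below is a description. All 25 of 25 pan-endothelial markers, among them the 4 rule genes, passed in the higher direction, with a median log2 ratio of 5.40. In a count below, higher and lower mean past this 2-fold line.

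The largest ratios belonged to genes of single vessel types as well as to general endothelial genes. *Mmrn1*, an extracellular protein of lymphatic endothelium, led with a log2 ratio of 8.48 (7.62 to 9.49), followed by *Glycam1*, a mucin that carries the L-selectin ligand, at 7.64 (6.84 to 8.57). Each was seen in only 29 of the 255 cells. *Rbp7*, a retinol carrier, reached 6.68 and *Flt4*, the VEGF-C receptor, 6.61. The level of *Rbp7* was 114 CPM, but 56.2 CPM without 45 cells of the mural-led clusters described below, since 536 of its 917 UMIs lay in 1 of them. *Sox18* (6.23) and *Sox17* (6.09), transcription factors of vessel identity, and *Aplnr* (6.20), the apelin receptor, were much more widely seen, in 189, 163 and 152 cells. The remaining genes of the leading 20 were *Cldn5*, itself a gene of the rule, *Gpihbp1*, *8430408G22Rik*, *Clca3a1*, *Grrp1*, *Tmem252*, *Stmn2*, *Ushbp1*, *Fam167b*, *She*, *Gja5*, *Gpr182* and *Klhl4*, with ratios from 6.07 to 7.19. By level, the most abundant gene of the cells with a known endothelial role was *Fabp4*, a fatty acid carrier of capillaries, at 8441 CPM (8378 to 8505) against 177 CPM in other tendon cells. *Ctla2a* followed at 4497 CPM and the secreted matrix protein gene *Igfbp7* at 4248 CPM. Mural cells held 1706 CPM of *Fabp4*, 11.4 CPM of *Ctla2a* and 4017 CPM of *Igfbp7*. *Igfbp7* was thus at a like level in both cell types of the vessel wall.

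Among VEGF ligands and receptors, the receptors were high in endothelial cells and the main ligand was not. Of 10 genes, 5 were higher, 2 lower and 3 between. *Flt1* (VEGFR1, which holds VEGF-A and PlGF) stood at 416 CPM (402 to 430) against 10.5 CPM in other tendon cells. *Kdr* (VEGFR2, the main signalling receptor) stood at 201 CPM (191 to 211) against 4.05 CPM. *Flt4* stood at 53.0 CPM against 0.544 CPM. All 3 receptors were therefore near absent outside the endothelium, with the exception of *Flt1* at 81.2 CPM in mural cells. *Vegfa* ran the other way, with 7.32 CPM (5.58 to 9.45) in endothelial cells, 62.8 CPM in stromal cells and 65.1 CPM in leukocytes, a log2 ratio to all other tendon cells of -2.99 (-3.38 to -2.62). *Figf* (VEGF-D) was at 1.24 CPM against 70.9 CPM in stromal cells. The ligands that were higher in endothelial cells were *Pgf* (PlGF, 55.1 CPM, log2 ratio 2.58) and *Vegfc* (9.19 CPM, 1.45). The co-receptor genes *Nrp1* (228 CPM, 0.23) and *Nrp2* (140 CPM, 0.69) were shared with leukocytes, which had 265 and 140 CPM.

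Of 9 angiopoietin and Tie genes, 4 were higher and 4 lower. The receptors were higher, and the ligands *Angpt1* and *Angpt2* lay on opposite sides. *Tek* (TIE2, the angiopoietin receptor) stood at 83.9 CPM (77.7 to 90.5) against 2.37 CPM, *Tie1* at 142 CPM against 2.60 CPM, and *Ptprb* (VE-PTP, the phosphatase that acts on TIE2) at 287 CPM against 5.02 CPM. *Angpt1*, the TIE2 agonist, was at 0.869 CPM in endothelial cells and 35.1 CPM in stromal cells. *Angpt2*, the context-dependent antagonist made by activated endothelium, was at 77.0 CPM (71.0 to 83.3) against 1.04 CPM in stromal cells and 47.8 CPM in mural cells. The apelin and sphingosine 1-phosphate genes were 4 higher and 1 lower of 6 tested: *S1pr1*, the barrier-keeping receptor, at 306 CPM, *Aplnr* at 198 CPM, *Spns2*, the sphingosine 1-phosphate exporter, at 87.8 CPM and *Apln* at 80.7 CPM. *Apln* was not made by endothelium alone, since stromal cells held 19.0 CPM.

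**Figure D2:**
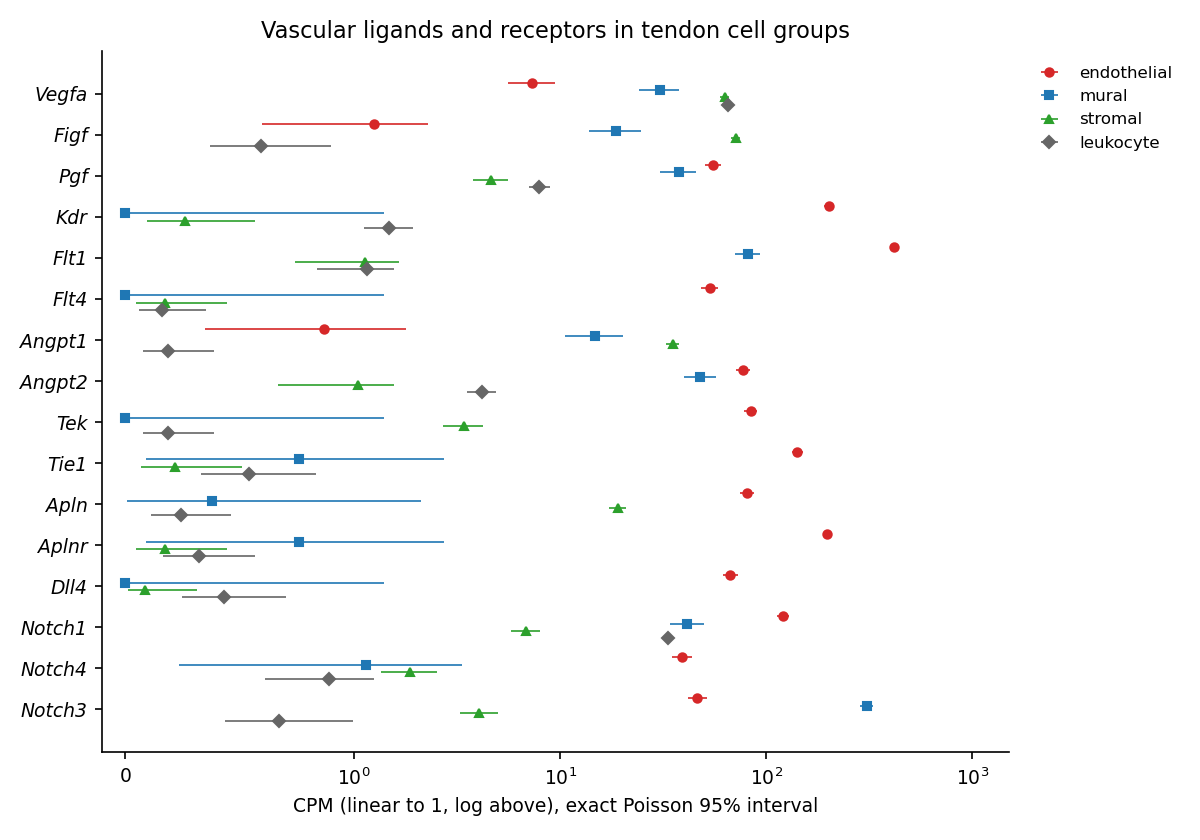
CPM (linear to 1, log above) of 16 vascular ligand and receptor genes in endothelial, mural, stromal and leukocyte cells of the tendon, with lines for exact 95% counting intervals. *Flt1*, *Kdr* and *Tek* are highest in endothelial cells, and *Vegfa* and *Angpt1* are lowest or near lowest in them.

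Notch genes, which assign tip and arterial fates, were 10 higher and 2 lower of 16. *Dll4*, the tip cell ligand, stood at 66.8 CPM (61.3 to 72.7) against 1.29 CPM. *Notch1* stood at 121 CPM against 29.1 CPM and *Notch4* at 38.9 CPM against 1.80 CPM. The target genes *Hes1* (283 CPM, log2 ratio 1.27) and *Hey1* (22.1 CPM, 3.45) were higher as well. *Notch3*, the mural receptor, was at 46.3 CPM with a log2 ratio of 1.68, but at 1.86 CPM with a ratio of -2.95 when 45 cells of the mural-led clusters described below were left out. *Jag1* (25.1 CPM, 0.50) lay between, and mural cells held more of it, at 99.0 CPM.

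In the BMP and TGF-β list 9 of 23 genes were higher and 8 lower, close to an even split. The endothelial receptor genes were higher: *Eng* (endoglin, 542 CPM, log2 ratio 4.51), *Acvrl1* (ALK1, 87.3 CPM, 1.81) and *Bmpr2* (114 CPM, 1.05). The target genes *Id1* (282 CPM, 1.73) and *Id3* (416 CPM, 1.46) were higher too. Of the ligands, *Bmp4* was higher (52.1 CPM against 3.03 CPM) while *Bmp2* was not (9.81 CPM against 10.1 CPM). *Inhba* (activin A) was lower (2.36 CPM, -3.99). Among PDGF, FGF and other growth factor genes 11 of 24 were higher and 6 lower. *Pdgfb*, the ligand that recruits mural cells, stood at 78.1 CPM (72.1 to 84.4) against 9.48 CPM in mural and 0.131 CPM in stromal cells. *Ramp2*, part of the adrenomedullin receptor, stood at 612 CPM (log2 ratio 4.78), and *Hbegf*, an EGF receptor ligand, at 248 CPM (1.65). *Igf1* was lower (13.0 CPM, -3.36), as was *Fgf2* (0.372 CPM, -4.23, interval -6.51 to -2.67), of which only 3 UMIs were counted.

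Leukocyte adhesion and transmigration genes were 13 higher, 1 lower and 5 between of 19, with a median log2 ratio of 4.44. *Selp* (P-selectin, GRCm38 chr1:164115264-164150026), which starts leukocyte rolling, stood at 386 CPM (372 to 400) against 9.98 CPM. *Sele* (E-selectin), made on cytokine stimulation, stood at 112 CPM (104 to 119) against 5.15 CPM. *Ackr1*, a receptor that carries chemokines across venules, stood at 235 CPM (225 to 246) against 6.58 CPM. These 3 genes were near 0 in mural cells, at 0.759, 0.759 and 1.14 CPM. *Icam2* (282 CPM, 5.51), *Esam* (503 CPM, 5.33) and *Jam2* (209 CPM, 5.23), receptors at the junctions, had ratios of the same order. The cytokine-induced receptors *Icam1* (157 CPM, 1.32) and *Vcam1* (77.0 CPM, 0.75) were less confined: leukocytes held 88.5 CPM of *Icam1* and stromal cells 101 CPM of *Vcam1*. With each cell weighted equally the *Icam1* ratio came to 0.71. *Alcam* was the single lower gene (2.85 CPM, -3.60).

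Of 23 chemokine and cytokine genes, 6 were higher and 12 lower than in other tendon cells, with a median log2 ratio of -1.59. *Cxcl1* was among the lower genes, but its ratio was -0.96 with each cell weighted equally and so inside the 2-fold line. *Csf3* (G-CSF, the growth factor of neutrophils, chr11:98701263-98703629) was one of the 6, at 134 CPM (126 to 142) against 13.3 CPM in other tendon cells, 11.2 CPM in stromal cells and 14.7 CPM in leukocytes. *Kitl* (stem cell factor) was another, at 202 CPM (192 to 212) against 20.9 CPM. Both act on hematopoietic cells. The others were *Cxcl9* (20.5 CPM, 1.81), *Cx3cl1* (11.2 CPM, 3.22), and the genes *Ccl21a* and *Ackr2* of lymphatic endothelium. *Cxcl2*, a neutrophil chemoattractant, was at 95.5 CPM against 5531 CPM in leukocytes. *Il1b* was at 3.48 CPM against 1123 CPM in leukocytes, and *Tnf* at 6.70 CPM against 308 CPM. *Cxcl12* at 382 CPM was below the 796 CPM of stromal cells, and *Il6* at 96.1 CPM was below the 352 CPM of mural cells. *Acod1*, which encodes the enzyme that makes itaconate, was named after its values were seen. It was at 0.869 CPM (7 UMIs) against 171 CPM in leukocytes.

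Cytokine receptor genes were 0 higher, 7 lower and 13 between of 20. *Tnfrsf1a* (TNFR1, 209 CPM, log2 ratio 0.63) and *Il6st* (gp130, 178 CPM, 0.60) were the most abundant. *Il1r1* stood at 66.0 CPM (60.5 to 71.9), below the 191 CPM of stromal and 290 CPM of mural cells and above the 3.83 CPM of leukocytes. *Il1rl1* (0.497 CPM, -7.81) and *Il6ra* (2.73 CPM, -4.24) had the lowest ratios.

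Junction genes were 15 higher and 0 lower of 20. Beside *Cdh5*, *Cldn5* and *Plvap*, the caveolar genes *Cav1* (601 CPM, 2.48) and *Cavin2* (315 CPM, 4.51) and the tight junction scaffold *Tjp1* (120 CPM, 2.74) were higher. *Ocln* (occludin), a defining tight junction gene of brain endothelium, was near 0 at 0.993 CPM. Basement membrane genes were 14 higher and 1 lower of 22. *Col4a1* stood at 1190 CPM (1166 to 1214) and *Col4a2* at 579 CPM, against 162 and 73.0 CPM, but mural cells matched them at 1241 and 541 CPM. *Hspg2* (perlecan) stood at 287 CPM (2.23), and *Sparc*, at 3423 CPM (0.75), was higher still in stromal cells (5078 CPM). *Fn1* was the lower gene (120 CPM, -2.32).

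Shear-responsive and haemostasis genes were 10 higher and 3 lower of 19. *Nos3* (endothelial nitric oxide synthase) stood at 100 CPM against 2.45 CPM, *Vwf* (the platelet tether) at 107 CPM against 3.89 CPM and *Edn1* (endothelin 1) at 67.5 CPM against 2.26 CPM. The flow-responsive factor *Klf2* was higher (431 CPM, 1.20) and *Klf4* was not (304 CPM, -0.48). *F3* (tissue factor, the trigger of clotting) was lower, at 2.85 CPM against 50.3 CPM in stromal cells, and so was *Ptgs2* (11.3 CPM, -4.28). Lipid uptake and transport genes were 10 higher and 3 lower of 21. *Aqp1* (824 CPM against 25.8 CPM), *Cd36* (440 CPM, 2.71) and *Scarb1* (174 CPM, 3.24) joined *Fabp4* and *Gpihbp1*. *Lpl*, the lipase that GPIHBP1 carries, was at 79.1 CPM in endothelial cells and 206 CPM in leukocytes.

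Endothelial transcription factor genes were 21 higher and 0 lower of 27. *Erg* stood at 79.3 CPM (73.3 to 85.7) against 2.19 CPM, *Sox7* at 103 CPM against 2.90 CPM and *Tal1* at 23.2 CPM against 1.35 CPM. *Tcf4* was the most abundant, at 545 CPM. *Fli1* (123 CPM, 1.65) was shared with leukocytes (72.6 CPM), as was *Hif1a* (232 CPM, -0.29) with other tendon cells at large. *Etv2*, the pioneer factor of embryonic endothelium, was at 0 UMIs.

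Genes linked to mesenchymal transition were 1 higher, 13 lower and 6 between of 20. The 1 higher gene was *Zeb1* (83.7 CPM, 1.35). *Snai1* (36.6 CPM, 0.97) and *Snai2* (6.45 CPM, -0.01) lay between, and *Twist1* was lower (5.96 CPM against 45.3 CPM). *Acta2*, which encodes smooth muscle actin, was at 460 CPM but at 50.1 CPM without the mural-led clusters. *Col1a1* was at 46.1 CPM, and 11.2 CPM without those clusters, against 5079 CPM in stromal cells. The summed level of the 14 stromal markers was 319 CPM (136 CPM without the clusters) against 10643 CPM in other tendon cells. All 14 were lower, with *Col3a1* the most abundant at 127 CPM and 2 at 0, of which *Pdgfra* is held at 0 by the rule.

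Interferon-stimulated and MHC genes were 3 higher, 6 lower and 11 between of 20. The higher genes were the GTPase genes *Iigp1* (120 CPM, 3.19) and *Gbp4* (20.5 CPM, 4.37) and *Bst2* (355 CPM, 1.38). MHC class I genes were at the level of other tendon cells, with *H2-D1* at 753 CPM (0.13) and *H2-K1* at 452 CPM (0.03). Class II genes were not, with *H2-Ab1* at 2.98 CPM against 894 CPM in leukocytes. Of the immediate early and heat shock genes, which enzymatic digestion is known to induce, 1 was higher and 0 were lower of 20. *Hspb1* was that gene (410 CPM, 1.09), and its ratio was 0.92 without the mural-led clusters and so inside the 2-fold line, while *Junb* (1380 CPM, 0.08) and *Fos* (811 CPM, -0.19) were close to the other tendon cells. The thrombospondin, matrix protease and inhibitor genes were 8 higher and 7 lower of 21, with *Adamts1* (427 CPM, 1.80) and *Timp3* (263 CPM, 2.19) higher and *Thbs1* (67.3 CPM, -3.30) and *Mmp9* (0.497 CPM, -7.47) lower.

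For sprouting vessels, a tip and angiogenic marker list was 18 higher and 1 lower of 22. Against mural cells alone it was 14 higher and 1 lower, with sums of 3387 CPM in endothelial and 2636 CPM in mural cells. Of a longer tip cell list used by the study for module scores, the 49 genes counted here were 29 higher and 6 lower than in other tendon cells. The study's stalk cell list was 20 higher and 1 lower of 26. The printed tip cell list holds more entries than were counted, and both lists were counted under symbols found in the files. The study's methods trace its module score lists to KEGG, and the counts of both are given as a description. Lists of single vessel types were 17 higher of 20 for arterial, 13 of 17 for capillary, 11 of 17 for venous and 8 of 12 for lymphatic genes.

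Markers of other cells were read in the same way. Leukocyte markers were lower for 15 of 15, summing to 102 CPM against 17061 CPM in other tendon cells. *Lyz2*, the most abundant of them, was at 23.1 CPM in endothelial, 25.5 CPM in stromal and 19.0 CPM in mural cells. It was thus at a like low level in 3 cell types that should lack it. Keratinocyte markers were lower for 6 of 6, Schwann cell markers for 6 of 6 and platelet markers for 2 of 4 tested, with 1 higher. Skeletal muscle markers were higher for 3 of 6, led by *Acta1*, and summed to 55.2 CPM, or 3.22 CPM without the mural-led clusters. Red cell markers were higher for 4 of 4 tested, but 2991 of their 2997 UMIs came from 1 cell, which falls in cluster 4.

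Mural markers were higher for 8 of 14 and summed to 1670 CPM, with *Acta2* the most abundant. Without the 45 cells of the mural-led clusters the sum was 225 CPM, against 23633 CPM in mural cells. *Rgs5*, a pericyte gene, was at 434 CPM with a log2 ratio of 3.01 (2.95 to 3.08), and at 40.4 CPM with a ratio of -0.41 without them. Of all 255 endothelial cells, 53 (20.8%) held at least 10 UMIs of 6 mural genes. Without the mural-led clusters, 210 endothelial cells remained, and 1902 genes were higher and 3201 lower than in other tendon cells. The Notch list then had 9 higher and 5 lower genes, and the lipid list 10 higher and 5 lower. Whether these are endothelial cells joined to mural cells in 1 droplet was not tested.

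Leiden clustering split the 255 cells into 7 clusters, which are described below by the markers among their leading 100 genes and named only where the 10 first genes do not favour another list. *Cldn5*, a gene of the rule, stood at 69.6 CPM in cluster 2, 202 CPM in cluster 7, 271 CPM in cluster 1, 667 CPM in cluster 3 and 956 to 1206 CPM in clusters 5, 4 and 6. The genes that define a cluster are a description of it. Cluster 1 (25 cells) held 10 of 14 mural markers among its leading genes, had a median of 58885 UMIs, and 5 of its cells were among the highest doublet scores. Its first genes were *Cd248*, *Col6a2* and *Adamts2*, genes of perivascular and stromal cells. Cluster 5 (20 cells) held 8 mural and 5 capillary markers, had a median of 12380 UMIs and no cell among the highest doublet scores, and was led by *Vtn*, *Steap4* and *Abcc9*, pericyte genes. *Rgs5* reached 4011 CPM there, against 1188 CPM in mural cells. *Pecam1*, outside the rule, stood at 498 CPM (466 to 532) in cluster 1 and 948 CPM (850 to 1054) in cluster 5. Both clusters are called mural-led here and given no cell type.

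**Figure D3:**
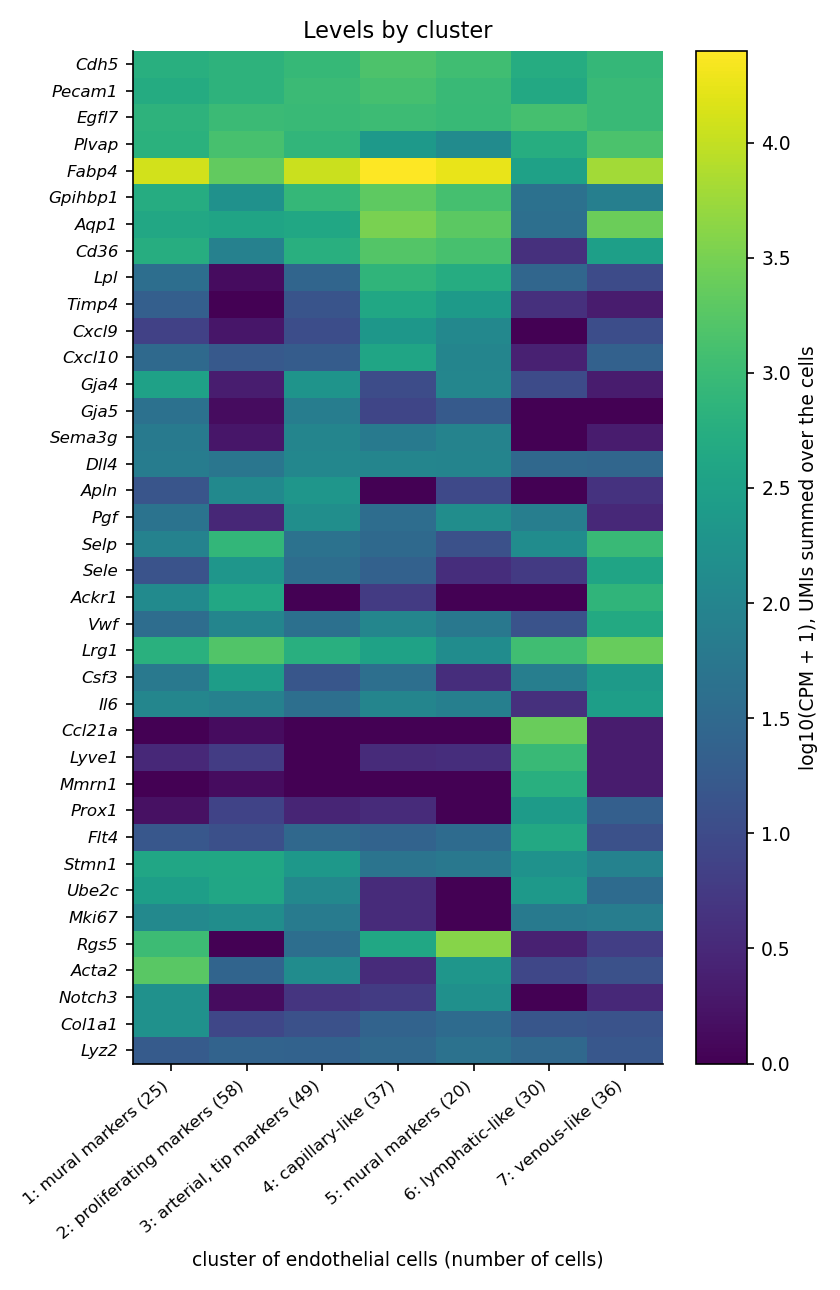
Levels of marker genes in the 7 endothelial clusters, as colour on a log10(CPM + 1) scale, with genes in rows and clusters in columns. *Rgs5* is highest in cluster 5, *Selp* in clusters 2 and 7, *Fabp4* in cluster 4 and *Lyve1* in cluster 6.

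Cluster 2, with 58 cells (22.7%) the largest, held 12 of 24 proliferating markers among its leading genes, such as *Birc5*, *Cdk1* and *Ube2c*, and the venous markers *Ackr1*, *Selp*, *Sele* and *Ch25h*. Its first genes were *Hist1h3c*, *Glycam1*, *Akr1b8*, *Raet1e*, *Selp* and *Csf3*. No gene of the proliferating list was among the first 10, so the cluster is given no name. That list does not hold *Hist1h3c* or the 10th gene, *Bub1*, and its own first member, *Aurka*, was 12th. Proliferating markers summed to 3097 CPM there against 1954 CPM over all endothelial cells, 1774 CPM in stromal cells and 604 CPM in leukocytes. Over all endothelial cells 3 of 24 were higher and 0 lower than in other tendon cells. Thinned to 3000 UMIs, 58.6% (44.9 to 71.4) of cluster 2 held at least 5 UMIs of these genes. Mural-led cluster 1 overlapped it, at 48.0% (27.8 to 68.7) and a sum of 2439 CPM. The share was 28.6% in cluster 3, 13.8% in cluster 6, 8.33% in cluster 7, and 0 of 31 and 0 of 20 cells in clusters 4 and 5, with exact upper limits of 11.2% and 16.8%. In the whole endothelium the thinned share was 27.0% (21.6 to 33.0), with 31.5% in stromal cells, 19.8% in mural cells and 5.19% in leukocytes. The endothelial, stromal and mural intervals overlap.

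Cluster 7 (36 cells, 14.1%) was venous-like by 9 of 17 markers, among them *Ackr1*, *Selp*, *Sele*, *Vwf* and *Vcam1*. *Hdc*, which encodes the enzyme that makes histamine, was its first gene, with 125 UMIs in 24 of its cells against 60 UMIs in all other endothelial cells. *Selp* stood at 946 CPM (883 to 1012) in cluster 7 and 818 CPM (782 to 855) in cluster 2, at 136 CPM (109 to 168) in cluster 6 and at 11.1 to 87.8 CPM in the others. *Ackr1* stood at 746 CPM (690 to 805) in cluster 7, 425 CPM (399 to 452) in cluster 2 and 126 CPM in cluster 1, with at most 2 UMIs in any of clusters 3 to 6. *Csf3*, itself among the first genes of cluster 2, stood at 282 CPM (261 to 305) there and 247 CPM (216 to 282) in cluster 7. It was at 75.8 CPM (56.1 to 100) in cluster 6, 58.7 CPM in cluster 1, 38.8 CPM in cluster 4, 13.8 CPM (8.64 to 20.9) in cluster 3 and 2.79 CPM in cluster 5. *Il6* was highest in cluster 7 alone, at 288 CPM (254 to 325) against 84.0 CPM in cluster 2.

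**Figure D4:**
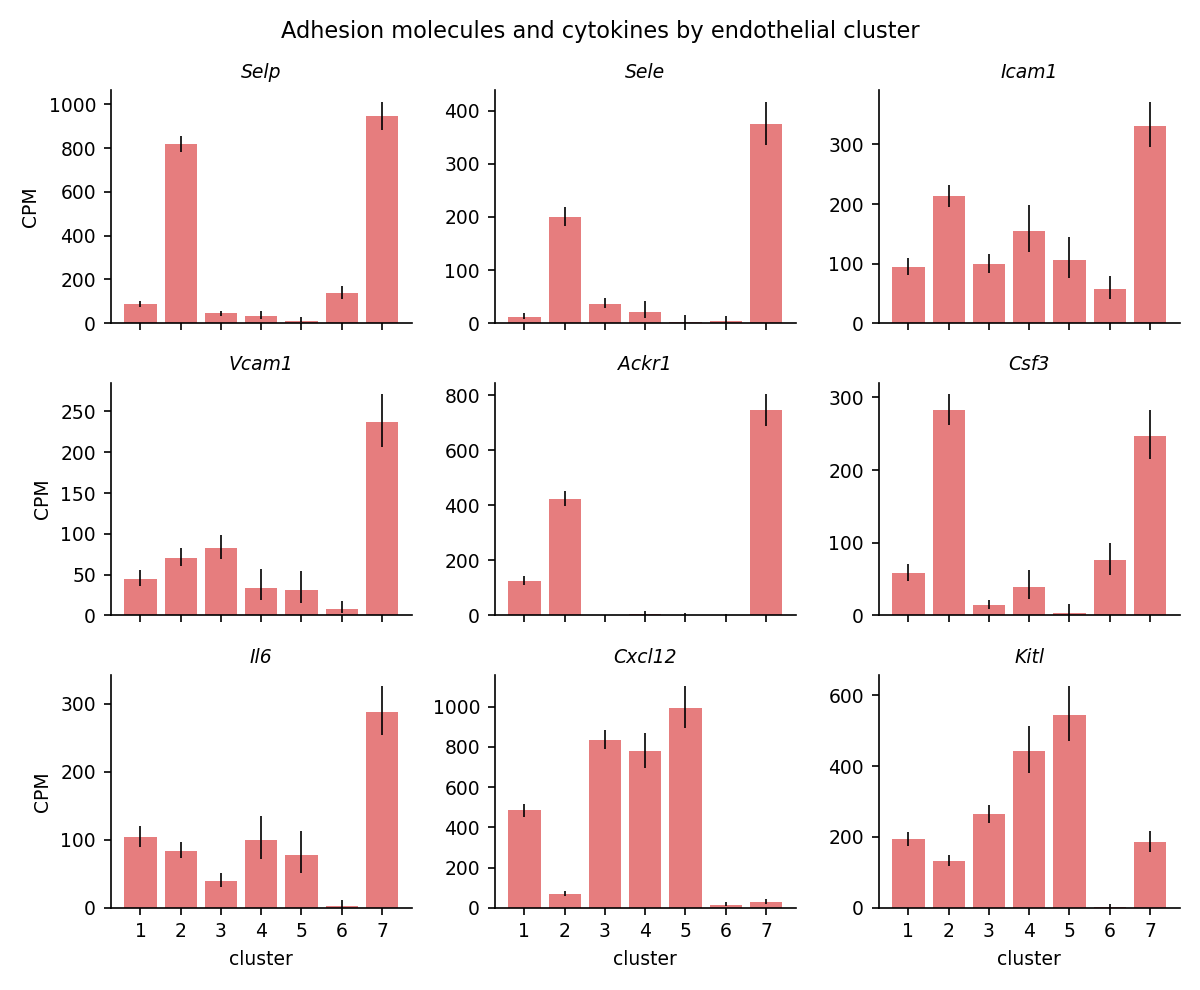
CPM of 9 adhesion and cytokine genes in the 7 endothelial clusters, each panel with its own axis from 0, with bars for the level and lines for exact 95% counting intervals. *Selp* is highest in clusters 7 and 2 at 946 and 818 CPM, *Csf3* in the same clusters, and *Cxcl12* is lowest in clusters 6, 7 and 2.

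Cluster 3 (49 cells, 19.2%) held 12 of 20 arterial and 8 of 22 tip and angiogenic markers among its leading genes. Its first 10 genes held the arterial markers *Gja5* and *Bmx* and the tip markers *Pgf*, *Cxcr4*, *Apln* and *Igfbp3*, so it is given no name. Its size depended on the clustering, since the cluster with the arterial markers held 11 cells at resolution 0.8, and 11 when immediate early, heat shock, proliferating and mitochondrial genes were left out. *Gja5* (connexin 40) stood at 72.1 CPM and was seen in 13 of the 49 cells, and *Apln* at 205 CPM (183 to 228) in 16. *Apln* was also present in cluster 2, at 124 CPM (110 to 139), and was at 0 UMIs in clusters 4 and 6. *Pgf* stood at 150 CPM (132 to 171) in cluster 3 and 2.11 CPM in cluster 2. *Dll4* was less restricted, at 108 CPM in cluster 3, 99.3 CPM in cluster 4 and 51.5 CPM in cluster 2. *Angpt2* was highest in cluster 2, at 133 CPM (118 to 148), and in cluster 6, at 97.5 CPM (74.9 to 125), against 57.0 CPM in cluster 3. *Cxcl12*, an arterial marker, was at 835 CPM in cluster 3 and at 70.1 and 30.5 CPM in clusters 2 and 7.

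Cluster 4 (37 cells, 14.5%) was capillary-like by 10 of 17 markers and was the shallowest, with a median of 7575 UMIs. Its first genes were *Timp4*, *Cxcl9*, *Adh1*, *Lnx1* and *Lpl*. *Fabp4* stood at 25059 CPM there, 17801 CPM in mural-led cluster 5 and 333 CPM in cluster 6, and *Gpihbp1* at 2006, 1265 and 43.3 CPM. *Lpl* was at 749 CPM (667 to 837) in cluster 4 and 535 CPM in cluster 5, against at most 38.0 CPM in the others. *Plvap* was lowest in the capillary-like cluster and in mural-led cluster 5, at 240 and 134 CPM, against 1325 to 1444 CPM in clusters 2 and 7. *Flt1* was highest in cluster 4 at 1308 CPM (1200 to 1423). Chemokine and interferon genes were found there too: *Cxcl10* at 378 CPM (321 to 442), though in only 10 of 37 cells, and *Iigp1* at 661 CPM (585 to 745), near the 713 CPM of cluster 5 and above the 17.0 to 123 CPM of the others. Interferon-stimulated and MHC genes summed to 8252 CPM in cluster 4, 7196 CPM in cluster 5 and 1391 to 3885 CPM in the others. Immediate early and heat shock genes moved with them, summing to 21442 and 25287 CPM in clusters 4 and 5 and to 5401 to 10370 CPM in the others. *Jun* alone was at 2638 CPM in cluster 4, 3194 CPM in cluster 5 and 315 to 889 CPM in the others. The part of digestion or depth in these levels was not tested.

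Cluster 6 (30 cells, 11.8%) was lymphatic-like by 10 of 12 markers and the most sharply set apart. *Lyve1* stood at 956 CPM (883 to 1035), *Mmrn1* at 602 CPM (544 to 665) and *Prox1*, the master factor of lymphatic fate, at 263 CPM (225 to 306). In cluster 3 they were at 0, 0 and 1.88 CPM. *Flt4* was at 458 CPM (407 to 513) against at most 33.4 CPM in any other cluster, while *Flt1* was at 9.29 CPM against 290 to 1308 CPM. *Kdr* did not set the cluster apart, at 274 CPM (235 to 317) against 138 to 305 CPM in the others. *Ccl21a*, the chemokine that draws dendritic cells into lymphatics, stood at 2452 CPM but in 12 of the 30 cells, and its value is uncertain because near-identical copies of the gene can share its reads. *Ackr2*, a chemokine scavenger, was at 89.8 CPM (68.2 to 116) and at 0 UMIs in all 6 other clusters.

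Mural cells were the other cell type of the vessel wall in the library, taken as 100 tendon cells with at least 10 UMIs of 6 mural genes, no *Ptprc* or *Pdgfra* and few UMIs of the 4 endothelial genes. Of 11434 genes tested, 1824 were higher in endothelial cells, which is 16.0%, and 1384 lower, which is 12.1%, around a median log2 ratio of 0.10. The groups were again chosen on this contrast. The 10 genes with the largest ratios had between 0 and 30 UMIs in mural cells, and their intervals overlap, so that their order is not determined. With 1 or 2 mural UMIs each, *Tmem252* had a log2 ratio of 9.78 (7.93 to 12.8), *Myct1* of 9.39 (6.91 to 14.7), *Stmn2* of 9.25 (6.77 to 14.6), *Fam167b* of 9.13 (6.65 to 14.4), *Selp* of 8.99 (7.14 to 12.0) and *Ctla2b* of 8.53 (6.68 to 11.6). *Ctla2a* (8.63, 8.11 to 9.19) and *Cdh5* (8.40, 7.28 to 9.85) completed the list with *Gpihbp1* and *Cldn5*, which were at 0 UMIs in mural cells, so that their log2 ratios are at least 8.79 and 8.58. Toward mural cells the largest ratios included those of *Pi15* (-9.37), *Cxcl3* (-8.89, -11.2 to -7.34), *Fgf7* (-8.34, -13.7 to -5.83), *Actg2* (-8.31), *Cxcl5* (-8.08), *Cnn1* (-8.05), *Sh3bgr* (-7.41, -10.5 to -5.52) and *Inhba* (-6.45), and *Ccl19*, at 0 UMIs in endothelial cells, was lower by a log2 ratio of at most -7.31. Contractile genes (*Actg2*, *Cnn1*) and neutrophil chemokines (*Cxcl3*, *Cxcl5*) were among them. The mural cells also held markers of other cells. Stromal markers summed to 7128 CPM in them against 319 CPM in endothelial cells (8 of 10 tested lower in endothelial cells, *Col3a1* at 3275 CPM in mural cells), and keratinocyte markers to 824 CPM against 37.5 CPM (4 of 5 lower, *Krt14* at 361 CPM). Their part in these ratios was not tested.

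By group, interferon-stimulated and MHC genes were 15 higher and 0 lower of 20 in endothelial against mural cells, with *H2-D1* at 753 CPM against 146 CPM and *H2-K1* at 452 CPM against 116 CPM. Leukocyte adhesion genes were 14 higher and 3 lower of 19, and chemokine and cytokine genes 9 higher and 9 lower of 22. *Cxcl1* stood at 247 CPM in endothelial and 1726 CPM in mural cells. Basement membrane genes were 5 higher and 2 lower of 22, the remaining 15 being within 2-fold. *Procr*, the protein C receptor, was lower in endothelial than in mural cells (161 CPM against 488 CPM, log2 ratio -1.60), whereas *Thbd*, its partner in the protein C pathway, was at 81.9 and 78.5 CPM.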

How the data were processed

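For 3 tissues, single-cell 3′ libraries (10x chemistry v3), 1 per tissue, were analysed from the raw UMI counts per gene and cell that the authors deposited. Per the file headers the counts were made with Cell Ranger 5.0.1, and per the labels they were aligned to mm10. Their filtered cells numbered 5629 for the tendon, 1855 for marrow and 2241 for blood. Cells with at least 200 genes and at most 20% mitochondrial UMIs were kept. No doublets were removed, and the highest Scrublet scores (scanpy) served as an alternative.

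Endothelial cells were chosen as the report states, stromal cells by at least 1 *Pdgfra* UMI and 10 UMIs of *Col1a1*, *Col1a2* and *Dcn* (596 cells), leukocytes by *Ptprc* (3129 cells) and mural cells by at least 10 UMIs of *Rgs5*, *Notch3*, *Myh11*, *Kcnj8*, *Abcc9* and *Cspg4* (100 cells). These 3 groups hold at most 2 UMIs of the 4 endothelial genes. Counts were summed over cells, divided by all UMIs of those cells and given per 1000000 UMIs (CPM), since 3′ UMIs do not scale with transcript length. Ratios are log2 ratios of CPM, with exact binomial intervals, over genes with at least 20 UMIs in both groups together. A group at 0 UMIs was set to 3 counts for a bound. Poisson intervals were used for CPM and Clopper-Pearson intervals for shares. With 1 library per tissue no p-value was computed. Clusters came from 1500 variable genes, 15 principal components, 15 neighbours and Leiden at resolution 0.5.

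The ratio script was tested on simulated data. The members, the 20 gene lists and 15 marker lists were chosen with earlier results of these data known. Of 493 list genes, 492 were found in the files. The genes named by rule were the 4 rule genes and 5 markers, up to 5 genes of highest CPM from each list with any defining marker near 0, the 20 largest ratios to other tendon cells (at least 100 UMIs, in at least 10% of cells), the 8 leading genes of each cluster (at least 50 UMIs, in at least 20% of its cells), and the 10 largest ratios to mural cells each way. Of these, 1 gene that met this rule is not reported here. Mitochondrial and ribosomal genes were not named by ratio. All other list genes were named after their values were seen. Gene positions are from GENCODE M21 on GRCm38. Python 3.11.15, numpy 2.4.6, scipy 1.17.1, pandas 2.3.3, scanpy 1.11.5 and igraph 0.11.9 were used.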

Additional observations from a re-analysis of the deposited data

How the results depend on the processing

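Leaving out 45 cells of the mural-led clusters, an alternative chosen after seeing the data, turned the log2 ratio to other tendon cells of *Notch3* from 1.68 to -2.95 and of *Rgs5* from 3.01 to -0.41. Keeping only cells with under 10 mural UMIs, also chosen after seeing the data, gave -4.00 and -2.30. The *Hspb1* ratio was 0.92 and 0.85 under these alternatives. At a log2 line of 0.5, 3649 genes were higher than in other tendon cells, and 3274 were higher and 2437 lower than in mural cells. A minimum of 100 UMIs gave 1070 higher and 676 lower than in mural cells, since fewer genes were tested. Of 1961 log2 ratios recomputed, 1520 kept within their counting interval, 437 moved past it and 4 reversed. Of 1001 CPM values 342 moved past theirs, and so did 29 of 34 shares of cells with a UMI, which were recomputed with each cell thinned to fewer or more UMIs. Weighting each cell equally had the largest median shift among the alternatives, 0.43 and at most 2.79, and took *Icam1* (0.71) and *Cxcl1* (-0.96) to other tendon cells and *Hspb1* (-0.90) to mural cells inside the 2-fold line. The number of endothelial cells was 269 at a minimum of 5 UMIs and 222 at 20. The cluster with the arterial markers, of 49 cells, held 11 at resolution 0.8 and 11 with immediate early, heat shock, proliferating and mitochondrial genes left out, where the cluster with the proliferating markers held 37 in place of 58. The lymphatic-like one held 30 in both. Scaling without mitochondrial and ribosomal genes shifted the median log2 ratio to other tendon cells by 0.06. No paired analysis was possible because each tissue is 1 library. No replicate could be left out for the same reason. The intervals cover counting error only, so that differences between mice are not in them.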
